A study of Mus musculus with 6 samples.

Results

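Of the 3662 circRNAs counted during white adipogenesis, 481 (13.1%) were detected only on day 4 (D4). A circRNA was taken as D4-only when it had 2 or more back-splice reads in both D4 libraries, but not in both libraries of day 0 (D0) and not in both libraries of day 8 (D8). The members were thus selected on their own reads at all 3 stages, and their stage pattern is described below without a test. The same rule gave 576 D0-only circRNAs, 658 D8-only circRNAs, 1012 circRNAs detected at all stages, here called all-stage circRNAs, and 935 detected at other pairs of stages.

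The cells were the stromal vascular fraction (SVF) of inguinal white adipose tissue (WAT) from female C57BL/6J mice (C57BL/6 in the labels) 6 weeks old, which holds preadipocytes together with fibroblasts, endothelial cells and other stromal cells. D0 cells were taken from growth medium. D4 cells had spent 4 days with insulin, dexamethasone and 3-isobutyl-methylxanthine, and D8 cells a further 4 days with insulin and the thyroid hormone T3. All 6 libraries, 2 for each stage, came from RNA depleted of rRNA and linear RNA. The replicates of a stage were biological replicates by the study's description. Whether they came from separate animals or cultures is not given in the sources used here. Each SD below is the spread between the libraries of a stage. Each SE comes from a fit over all libraries, and intervals cover counting error only. The libraries held 30110 to 50672 back-splice reads in the table, and 1 read was worth 19.7 to 33.2 circCPM (back-splice reads per 1000000 back-splice reads of the library). The D0 libraries were the smallest, with 30110 and 32310 reads, against 43069 and 41658 on D4 and 45371 and 50672 on D8. Values given in reads are not scaled for this.

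A circRNA forms when the spliceosome splices the end of an exon backwards, onto its own start or that of an exon further upstream, and the closed loop that results is resistant to exonucleases. The joint, the back-splice junction, is found in no linear transcript of the gene, and reads across it are what was counted here. A parental gene may give several circRNA isoforms that differ in their first or last exon. Preadipocytes leave the cell cycle and remodel their matrix under the induction cocktail before adipocyte genes reach their mature level, so D4 lies between the proliferating and the mature state.

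Bmper and Nfia gave the most D4-only isoforms, and their junctions are shown because isoforms of the same gene reuse the same splice sites. Lower case letters are the last 25 bases of the last exon and capitals the first 25 bases of the first exon, read 5′ to 3′ on the gene's strand from the mm9 genome, so that the back-splice lies where the case changes. The first set holds the Bmper junctions that end at exon 13, which share their lower case letters and differ in their capitals. The isoform of exons 12 to 13 was detected on D8 as well and was no member.
Bmper exons 7 to 13, chr9:23170636-23211275, + strand: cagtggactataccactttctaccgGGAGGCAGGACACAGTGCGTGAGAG
Bmper exons 8 to 13, chr9:23178277-23211275, + strand: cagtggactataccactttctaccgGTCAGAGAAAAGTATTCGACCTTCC
Bmper exons 11 to 13, chr9:23185873-23211275, + strand: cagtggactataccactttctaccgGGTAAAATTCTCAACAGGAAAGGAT
Bmper exon 13, chr9:23210939-23211275, + strand: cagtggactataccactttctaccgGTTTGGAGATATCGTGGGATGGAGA
Bmper exons 12 to 13, chr9:23203794-23211275, + strand: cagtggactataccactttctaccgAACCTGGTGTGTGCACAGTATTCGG

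The Nfia junctions pair each first exon with the end of exon 7 or of exon 6. The isoforms of exons 3 to 7 and exons 3 to 6 were detected on D4 and D8, and those that start at exon 4 or exon 5 were D4-only.
Nfia exons 5 to 7, chr4:97680904-97708370, + strand: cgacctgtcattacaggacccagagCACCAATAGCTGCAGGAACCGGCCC
Nfia exons 4 to 7, chr4:97667083-97708370, + strand: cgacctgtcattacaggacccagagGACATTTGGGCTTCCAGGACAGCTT
Nfia exons 3 to 7, chr4:97623065-97708370, + strand: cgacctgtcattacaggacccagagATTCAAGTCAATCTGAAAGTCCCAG
Nfia exons 5 to 6, chr4:97680904-97687645, + strand: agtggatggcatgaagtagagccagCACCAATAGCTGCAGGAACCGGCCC
Nfia exons 4 to 6, chr4:97667083-97687645, + strand: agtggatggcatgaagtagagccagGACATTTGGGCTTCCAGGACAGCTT
Nfia exons 3 to 6, chr4:97623065-97687645, + strand: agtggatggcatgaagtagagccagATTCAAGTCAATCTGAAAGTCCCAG

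The third set holds the junctions of other members with high D4 levels whose exons are coding throughout. Egfr exons 14 to 20 starts at the same exon as an all-stage Egfr isoform described further below.
Hirip3 exons 5 to 6, chr7:134007834-134008175, + strand: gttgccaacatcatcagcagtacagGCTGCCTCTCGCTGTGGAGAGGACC
Vwa8 exons 17 to 20, chr14:79408971-79425884, + strand: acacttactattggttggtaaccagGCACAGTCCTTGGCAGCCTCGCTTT
Hmbox1 exons 7 to 9, chr14:65444438-65447505, - strand: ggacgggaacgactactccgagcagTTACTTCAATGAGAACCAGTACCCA
Cd47 exons 4 to 8, chr16:49884278-49898245, + strand: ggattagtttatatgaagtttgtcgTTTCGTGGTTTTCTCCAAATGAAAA
Abi1 exons 2 to 7, chr2:22812538-22850210, - strand: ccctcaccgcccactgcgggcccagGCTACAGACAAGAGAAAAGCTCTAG
Egfr exons 14 to 20, chr11:16781467-16797082, + strand: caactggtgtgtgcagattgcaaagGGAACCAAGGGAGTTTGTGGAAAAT

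Most members rested on few reads. The sum of both D4 libraries had a median of 10 reads (quartiles 7 and 13) and ran from 4 to 100. The lower of the D4 libraries held exactly 2 reads for 129 members, 2 to 4 reads for 346 and 10 or more for 10. The replicates differed by more than 3-fold in circCPM for 61 members. Members were more often higher in D4 replicate 2 (295 circRNAs) than in D4 replicate 1 (186 circRNAs). Together they held 5.90% and 6.59% of the reads of the D4 libraries, 1.70% and 1.32% in the D0 libraries and 1.90% and 1.64% in the D8 libraries, a gap that the rule itself made.

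D4-only did not mean absent at the other stages. No read was listed in any D0 or D8 library for 145 members (30.1%, 95% Wilson interval 26.2 to 34.4%). With the rule applied to the remaining libraries, this share was 61.6% without D8 replicate 1, 64.2% without D8 replicate 2, 45.1% without D0 replicate 1 and 46.8% without D0 replicate 2. Leaving out a D0 or D8 library obliged the other library of that stage to be at 0, so this rise was built in. Another 206 were listed in 1 of these 4 libraries and 130 in 2 of them, never in both libraries of a stage. A D8 library listed 273 members and a D0 library 193, counts not scaled for the fewer reads of the D0 libraries. In reads, the highest D0 or D8 value reached or passed the lower D4 value in 264 members and the higher D4 value in 156. The table lists no value of exactly 1, so that a circRNA listed at 0 may have had a single read, and no fold change is given against such a stage. In bulk libraries, fewer cells that make a circRNA and fewer copies per cell cannot be told apart.

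**Figure D1:**
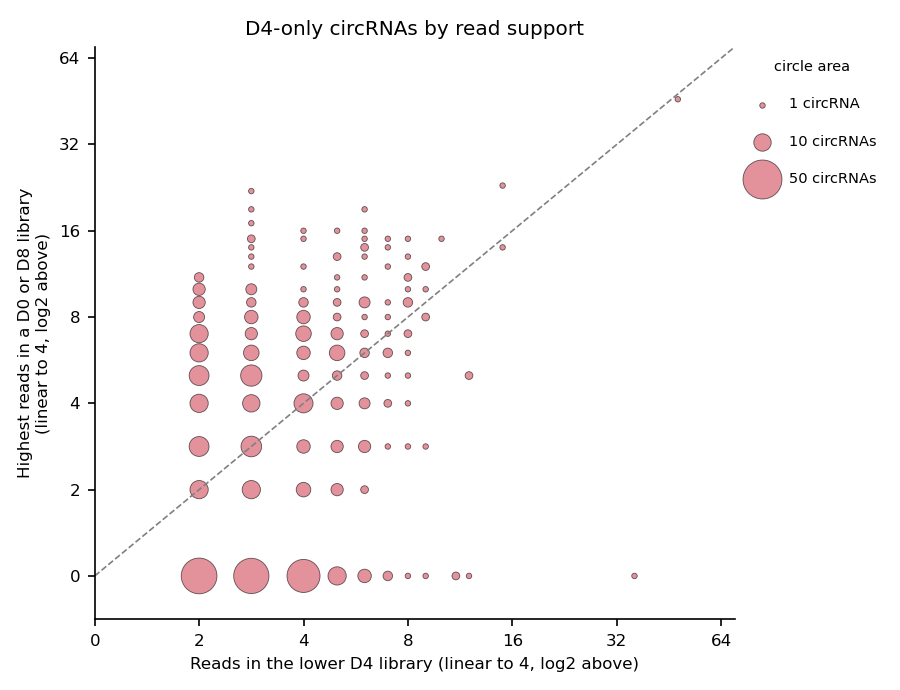
Each circle stands for the D4-only circRNAs that share a pair of values, its area for their number, with reads in the lower D4 library on the horizontal axis and the highest reads in any D0 or D8 library on the vertical axis (both axes linear to 4 and log2 above). The dashed line marks equal reads: 145 members lie at 0 on the vertical axis and 264 on or above the line.

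A value of 0 beside a high value in the other replicate of the same stage recurred in the table. On D8, 136 of the 3662 circRNAs (3.71%) had 0 in 1 library and 10 or more reads in the other, against 81 (2.21%) on D0 and 86 (2.35%) on D4. Among the members, 38 (7.90%) had such a D8 pair and 15 (3.12%) such a D0 pair. These members had met the rule only through the library at 0, and the cause of the 0 was not tested. All-stage circRNAs cannot have such a pair by their definition.

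The member with the highest D4 level showed this pattern. Slc10a7 exons 2 to 6, from a gene for a solute carrier that bears on calcium handling and glycosylation in the Golgi, had 48 and 52 reads in the D4 libraries, against 0 and 46 in the D8 libraries and 2 and 0 in the D0 libraries. Its D4 level was 1181 ± 94.6 circCPM (SD, n = 2). D8 replicate 2 thus came near the D4 libraries, and the 0 in D8 replicate 1 kept it from being called on D8.

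Zfx came next and had no such overlap. Its circRNA of exons 2 to 5 (chrX:91343622-91359602, - strand, mmu_circ_0016408 in circBase), from the X-linked gene of a zinc finger transcription factor needed for stem cell self-renewal, had 43 and 36 reads on D4 and was listed at 0 in all D0 and D8 libraries. The D4 level was 931 ± 94.9 circCPM (SD, n = 2), and it was the only member with 15 or more reads in both D4 libraries and none elsewhere. A closely related sequence, Zfa-ps, also gave a circRNA, with 14 and 22 reads on D4, 10 and 17 on D8 and 0 and 14 on D0. How reads shared by both sequences were placed is not given in the sources used here.

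Hmbox1 exons 7 to 9, from a homeobox gene whose protein binds telomeric DNA, had 15 and 15 reads on D4, but 23 and 0 on D8 and 4 and 0 on D0. Hirip3 exons 5 to 6, from a gene for a histone-binding partner of HIRA, had 12 and 23 reads on D4, 0 and 5 on D0 and none on D8. Hmbox1 therefore passed its D4 value in a D8 library, whereas Hirip3 stayed below its own in every other library.

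Celf2 exons 5 to 8, from a gene for a splicing regulator, had 21 and 5 reads on D4, 8 and 0 on D8 and none on D0. Its D4 replicate 2 lay below D8 replicate 1. Cd47 exons 4 to 8, from the gene of the surface protein that restrains phagocytes, had 3 and 24 reads on D4 and 2 and 0 on D8, so that its D4 level of 323 ± 358 circCPM (SD, n = 2) rested on D4 replicate 2. Vwa8 exons 17 to 20, from a gene for a mitochondrial ATPase, had 16 and 15 reads on D4, 14 and 0 on D8 and 0 and 8 on D0.

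Among members with no read listed at D0 or D8, the D4 libraries agreed more closely in some than in others. After Zfx came Nfia exons 5 to 7 (19 and 11 reads), Bmper exons 7 to 13 (12 and 14 reads), Abi1 exons 2 to 7 (11 and 14 reads) and Bmper exons 4 to 6 (14 and 9 reads). Abi1 encodes an adaptor of the actin-regulating WAVE complex. Intronic back-splices of Tgfbr3 (10 and 8 reads) and Fndc3b (10 and 7 reads) followed, the first from the gene of betaglycan, a coreceptor of TGF-beta, and the second from a gene known as a factor of adipocyte differentiation. Ap3b1 exons 23 to 27 (3 and 13 reads) and Cmip exons 4 to 10 (3 and 12 reads) leaned on D4 replicate 2. Egfr exons 14 to 20, from the gene of the epidermal growth factor receptor, closed the list with 6 and 9 reads.

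**Figure D2:**
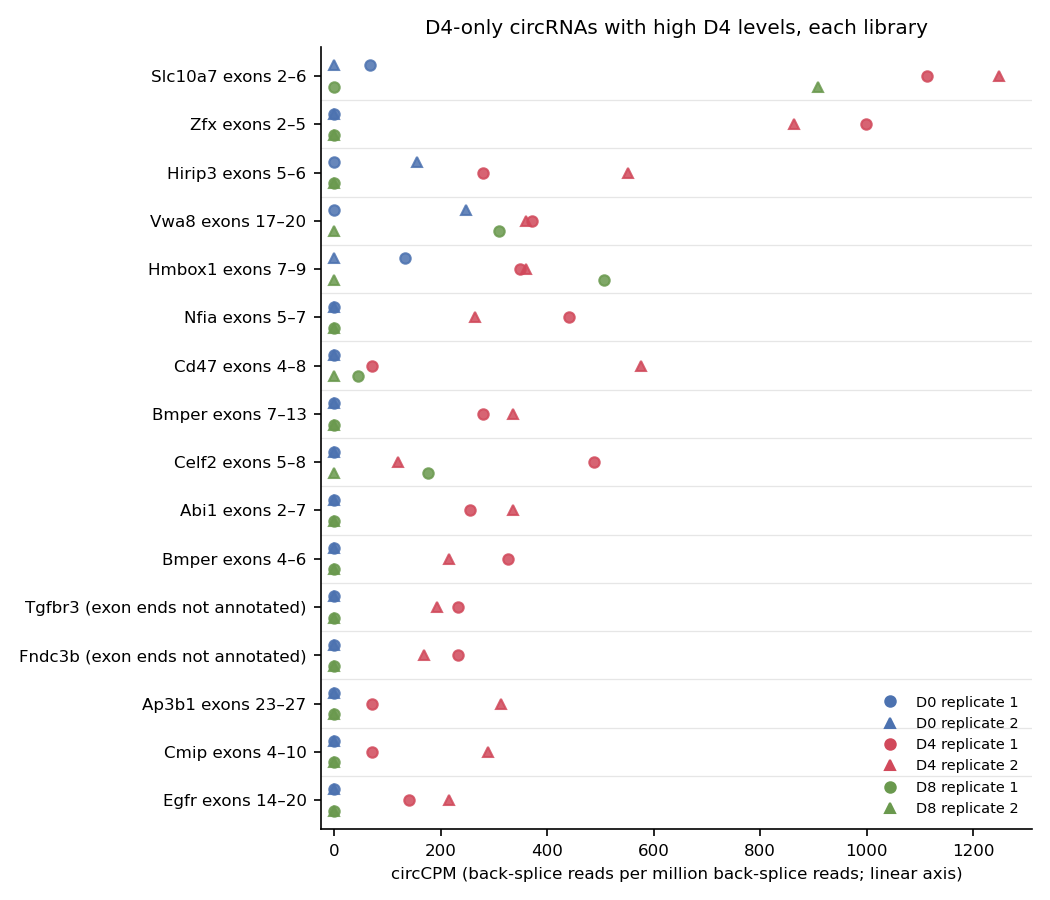
Level of D4-only circRNAs from among the 10 with the highest mean D4 circCPM, with 1 of these not shown, followed by those of the 10 highest with no read at D0 or D8 that were not already drawn, in each of the 6 libraries (horizontal axis, circCPM, linear). Circles are replicate 1 and triangles replicate 2. Slc10a7 has a D8 point near its D4 points, and Zfx stands alone at 931 circCPM on average with all D0 and D8 points at 0.

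The border of the set was narrow. Just inside it, by the most D4 reads among members whose lower D4 library held 2, were Man2a1 exons 4 to 6 (2 and 22 reads on D4, 0 and 2 on D0), Tbc1d2b (15 and 2 on D4, 0 and 5 on D0, 0 and 4 on D8) and Bmper exons 8 to 13 (13 and 2 on D4, 0 and 5 on D8). Just outside it were Fam172a (23 and 15 reads on D4, 2 and 33 on D8), Ptbp3 (18 and 12 on D4, 2 and 10 on D0) and Rhbdl3 (4 and 21 on D4, 2 and 11 on D8). In all, 38 circRNAs missed the set by a lower D8 value of exactly 2, and 41 by a lower D0 value of exactly 2.

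The 478 members that lay in a gene came from 388 parental genes. Of these, 324 gave 1 member, 45 gave 2 and 19 gave 3 or more. Bmper and Nfia gave 6 each and Slit3 gave 4, and the other 16 genes gave 3 each.

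Bmper, the gene of a secreted protein that binds bone morphogenetic proteins (BMP) and tunes their signal, gave 8 circRNAs, none with a read listed in either D0 library. On D4 they held 163 and 112 reads together, and on D8 20 and 49. The 6 members carried 38.2% of the D4 reads, and the isoforms of exons 3 to 6 and exons 12 to 13, both also detected on D8, carried the rest.

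The isoforms of Bmper fell into an upstream and a downstream block. Exons 4 to 6 had 14 and 9 reads on D4 and lay within the span of exons 3 to 6, which had 49 and 48. Downstream, exons 7 to 13 had 12 and 14 reads, exons 8 to 13 had 13 and 2, exons 11 to 13 had 5 and 7, exon 13 alone had 10 and 4 and exons 8 to 11 had 12 and 3. Exons 12 to 13, the main isoform of that block, had 48 and 25. Only exons 8 to 13 (0 and 5 reads) and exon 13 alone (0 and 4 reads) were listed on D8 among the members, both in D8 replicate 2.

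Nfia encodes a transcription factor of the nuclear factor I family with a known part in adipocyte gene programmes. Its 8 circRNAs held 167 and 120 reads on D4, 4 and 2 on D0 and 19 and 53 on D8. Those that were not members held 119 and 80 on D4, 4 and 0 on D0 and 13 and 53 on D8. The members carried 30.7% of the D4 reads. Exons 3 to 6 (70 and 49 reads on D4, 8 and 30 on D8) and exons 3 to 7 (49 and 31 on D4, 5 and 23 on D8) were the main isoforms. Each had shorter D4-only forms that kept the last exon: exons 4 to 6 with 8 and 7 reads, exons 5 to 6 with 3 and 3, exons 4 to 7 with 7 and 7, and exons 5 to 7 with 19 and 11. Among these, only exons 4 to 7 were listed on D8, with 6 and 0 reads. The circRNA of exon 2 alone, with 6 and 6 reads, shared no end with the others, and a back-splice from the start of exon 3 into the intron had 5 and 6 reads.

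**Figure D3:**
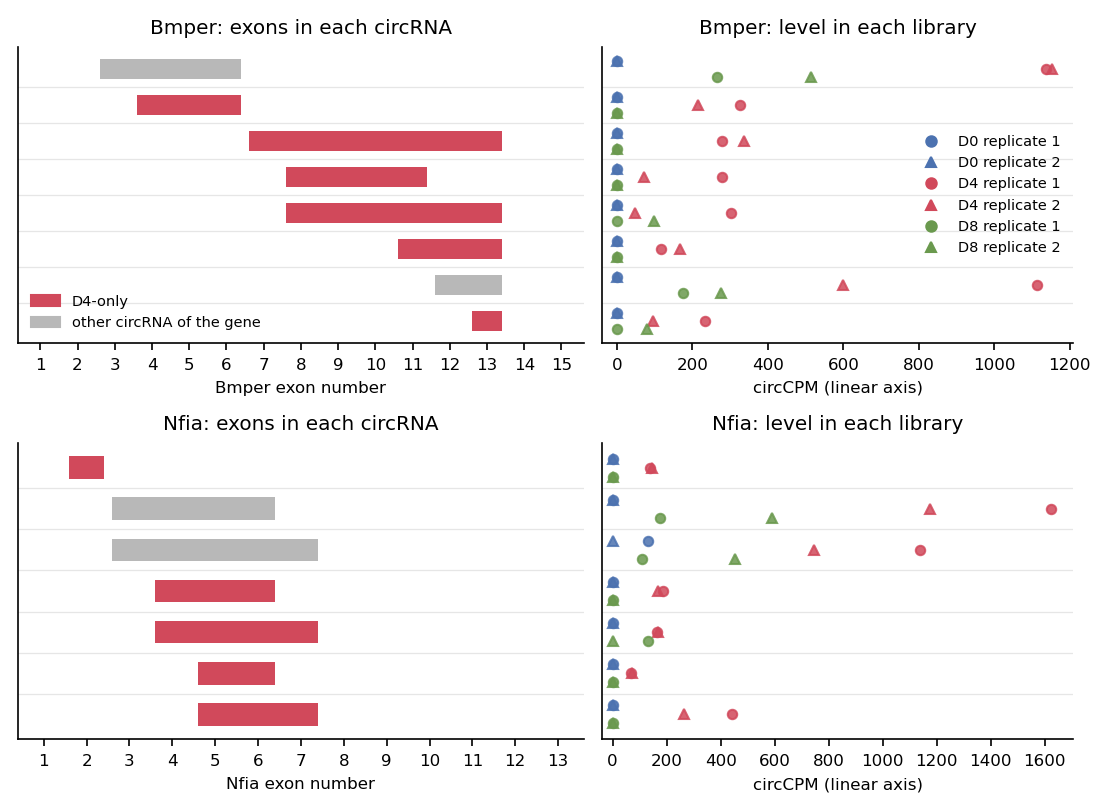
Left, the exons held by each circRNA of Bmper (15 exons) and of Nfia (13 exons), with D4-only circRNAs in red and other circRNAs of the gene in grey. Right, the level of the same circRNA in each library (circCPM, linear axis). D4 points lie to the right of D0 and D8 points in most rows, and the grey isoforms of both genes have the highest D4 levels. An intronic Nfia back-splice is not drawn.

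The other genes with 3 or more members differed in how much of their circRNA output was D4-only. Slc4a4, the gene of a sodium bicarbonate cotransporter, gave 3 members and no other circRNA. In Cblb, the gene of a ubiquitin ligase that restrains receptor signalling, 3 members held 91.7% of the D4 reads. Vwa8 reached 83.8%, BC057079 82.9% and Tgfbr3 68.6%. At the other end, members were 4.23% of the D4 reads of Fndc3b, 4.83% of Bckdhb, 7.81% of Rere and 9.77% of Slc10a7.

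Tgfbr3 resembled Bmper in having no circRNA read listed on D0. Its 7 circRNAs held 35 and 35 reads on D4 and 23 and 17 on D8. The circRNAs of Slit3, the gene of a secreted guidance ligand, held 58 and 36 reads on D4, 10 and 11 on D0 and 33 and 46 on D8. The Tgfbr3 and Slit3 sums include the members' own D4 reads, which the rule used. With its 3 members left out, Tgfbr3 kept 12 and 10 reads in the D4 libraries, against 12 and 17 in the D8 libraries. Its higher D4 sum in reads thus rested on the members. The Slit3 circRNAs that were not members held 36 and 13 reads on D4, 10 and 9 on D0 and 29 and 34 on D8. The Slit3 members were exons 5 to 8 (9 and 5 reads on D4), exons 6 to 9 (7 and 7), exons 7 to 12 (2 and 6) and exons 24 to 28 (4 and 5). Exons 6 to 9 also had 0 and 12 reads on D8, above both D4 values.

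Parental genes were next grouped by function. D4-only circRNAs were 13.1% of all those counted, and the lists are set against that share with no test, since they were drawn up with results of these data known. Counts of D0-only and D8-only circRNAs in a list are to be read beside the 576 and 658 among all 3662. Genes of TGF-beta and BMP signalling had the highest share among lists of more than 20 circRNAs, with 12 D4-only circRNAs of 55 (21.8%), while 11 of the 55 were D0-only and 5 were D8-only. All 12 members came from 4 genes: Bmper (6), Tgfbr3 (3), Tgfbr2 (2) and Smad2 (1). The rank of the list rested on Bmper, since 6 of the 8 circRNAs of that gene were members. Tgfbr2, the gene of the type II receptor, gave exons 2 to 4 with 3 and 4 reads on D4 but 19 and 0 on D8, and exon 5 alone with 3 and 3 reads and none elsewhere. The members of the list held 100 and 79 reads on D4, 5 and 0 on D0 and 33 and 9 on D8. All circRNAs of the list, members included, summed to 22127 and 20452 circCPM on D4, 16440 and 16527 on D0 and 14921 and 15511 on D8. The rule chose the members through their D4 reads, so part of the D4 excess was built in. Of the list's 24 tested circRNAs that were not members, 5 were called higher and 3 lower on D4 than on D0 by the edgeR test described below. The median log2 fold change of the 24 was -0.17. Among all 1380 tested circRNAs that were not members, 2.17% were called higher and 1.09% lower.

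Genes of the extracellular matrix and cell adhesion gave 18 of 103 (17.5%), while 25 of the 103 were D0-only and 16 were D8-only. Besides Slit3 and Cd47, these included Adam12, Pappa, Adamts15, Adamts12, Col4a2 and Hmcn1. Vwa8 also stood on the list with 3 members, although its product is mitochondrial, and without it 15 would remain. Genes of adipogenesis and lipid metabolism gave 21 of 138 (15.2%). Nfia gave 6 of these and Bckdhb, a subunit of the branched-chain keto acid dehydrogenase, gave 3. Phkb and Trim24, a kinase subunit of glycogen breakdown and a transcriptional cofactor, gave 1 each. For comparison, 46 circRNAs of this list were D8-only and 13 were D0-only. The list made up 6.99% of D8-only, 2.26% of D0-only and 4.37% of D4-only circRNAs, beside 3.77% of all those counted.

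Adipocyte marker genes gave 2 members of 18 circRNAs (11.1%), near the share over all circRNAs. Pparg exons 2 to 5, from the gene of the master regulator of adipogenesis, had 3 and 7 reads on D4, 5 and 0 on D8 and none on D0. Acaca exons 7 to 11, from the gene of acetyl-CoA carboxylase, had 5 and 3 reads on D4 and 0 and 14 on D8. Of the 18 circRNAs, 14 were D8-only. Their summed level was highest on D8, at 5819 and 4302 circCPM, after 1207 and 1200 on D4 and 764 and 124 on D0.

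Few marker genes of other cells that an SVF culture may hold gave a circRNA, and the same held for preadipocyte and fibroblast markers. None of 19 endothelial marker genes gave a circRNA, 1 of 14 mural cell markers and 3 of 21 macrophage and leukocyte markers did. The single member among these lists was Dock10 exons 15 to 19, from a gene expressed in leukocytes, with 4 and 2 reads on D4 and 4 and 0 on D8. The 5 circRNAs of the macrophage and leukocyte list summed to 882 and 720 circCPM on D4, between the 66.4 and 186 of D0 and the 1212 and 908 of D8. Few marker genes make circRNAs, so these values say little about the make-up of the cultures, and its part in the members was not tested. Preadipocyte and fibroblast markers gave no member, with 3 of 23 genes in the table.

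Transcription factors and regulators of protein turnover lay near the share of the table. DNA-binding transcription factors gave 31 of 214 (14.5%), among them Bnc2 exons 2 to 6 (13 and 9 reads on D4, 10 and 0 on D0, 4 and 0 on D8), Tcf4, Gli3, Ebf1 and Ebf2. Ubiquitin ligases and deubiquitinases gave 28 of 180 (15.6%), with Usp34 exons 30 to 33 at 4 and 15 reads on D4 and 0 and 8 on D0.

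Genes of the cell cycle, DNA replication and repair gave 15 of 109 (13.8%), and 28 of their circRNAs were D0-only. The highest members were Cdc14b exons 2 to 4 (8 and 11 reads on D4, 13 and 0 on D8) and Cdc14a exons 4 to 7 (8 and 6 on D4, 13 and 0 on D8, 0 and 6 on D0), both from genes of phosphatases that act late in the cell cycle. Spidr exons 7 to 8, from a DNA repair gene, had 5 and 8 reads on D4 and none elsewhere. RNA-binding and RNA-processing proteins gave 18 of 164 (11.0%).

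Among lists of more than 20 circRNAs, the lowest shares were those of chromatin regulators, with 14 of 181 (7.74%), and of insulin, glucocorticoid, cAMP and thyroid hormone signalling, with 5 of 75 (6.67%). The second list covers the pathways that the culture medium itself engaged. Its members were Pik3c2a exons 3 to 8 (4 and 9 reads on D4), Pde7b exons 5 to 9 (3 and 6), Atf2 exons 2 to 5 (5 and 3), Pik3ca exons 14 to 16 (5 and 2) and a circRNA of Sos2. Pik3c2a and Pde7b, genes of a lipid kinase and of a cAMP phosphodiesterase, had no read listed at D0 or D8. In the chromatin list Kdm7a exons 2 to 9, from a histone demethylase gene, had 13 and 4 reads on D4 and 9 and 0 on D8.

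Several properties that the rule did not use were then compared with those of the other stage groups. Of the members, 451 (93.8%) were exonic, 27 (5.61%) intronic and 3 (0.62%) intergenic, against 92.0% exonic among D0-only, 94.7% among D8-only and 96.0% among all-stage circRNAs. Both back-splice ends lay at annotated exon ends in 435 members, and the AG and GT splice signals flanked 479. A circBase entry was missing for 235 members (48.9%, 95% Wilson interval 44.4 to 53.3%), close to 48.4% of D0-only and 51.8% of D8-only circRNAs and above the 14.6% of all-stage circRNAs. It was missing for 64.1% of the 145 members with no read elsewhere and for 42.3% of the 336 others.

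Another circRNA of the same gene was in the table for 336 members (69.9%), near the 66.7% of all circRNAs counted. The share was 57.6% among D0-only, 61.6% among D8-only and 73.0% among all-stage circRNAs. A back-splice end was shared with another circRNA by 238 members (49.5%, Wilson interval 45.0 to 53.9%), against 35.8% (upper bound 39.8%) of D0-only, 39.8% (36.2 to 43.6%) of D8-only and 57.3% (54.2 to 60.3%) of all-stage circRNAs. Over all circRNAs it was 47.2%, within the interval of the members. It was 49.5% of circRNAs detected on D4 and D8, 51.4% of those on D0 and D4 and 40.4% of those on D0 and D8. The partner was an all-stage circRNA for 109 members, a circRNA detected at another pair of stages for 93, another member for 82, a D8-only circRNA for 43 and a D0-only circRNA for 22, and a member may have several. The first exon was exon 2 of its transcript in 30.1% of the 432 members with annotated exons, against 34.3% of D0-only, 25.7% of D8-only and 42.7% of all-stage circRNAs.

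The members had the highest median span of all stage groups, although its interval overlapped that of the circRNAs detected on D4 and D8. Their median span from start to end, introns included, was 12152 bases (95% interval of the median 10371 to 13747, quartiles 4839 and 27173). D0-only circRNAs had a median of 6831, D8-only circRNAs of 6124 and all-stage circRNAs of 7045 bases, and their upper interval bounds reached at most 7940. The 412 circRNAs detected on D4 and D8 had a median of 9416 bases (7949 to 11243), the 243 detected on D0 and D4 one of 7999 (6197 to 10299) and the 280 detected on D0 and D8 one of 5618 (4629 to 6462). Spans over 50000 bases made up 10.8% of members, 2.08% of D0-only, 5.02% of D8-only and 3.36% of all-stage circRNAs, and 3.88% of those detected on D4 and D8. The spliced length differed less, with medians of 474 bases for members, 455 for D0-only, 422 for D8-only and 439 for all-stage circRNAs. Members held a median of 4 exons (3 to 4) and every other stage group 3. The interval was also 3 to 4 for circRNAs detected on D4 and D8 and for those detected on D0 and D4. A single exon made up 2.31% of members (1.26 to 4.21%), 2.60% of circRNAs detected on D4 and D8, 4.87% of D8-only, 6.63% of D0-only and 7.74% of all-stage circRNAs. The intron before the circle had a median of 12256 bases in members (10107 to 14206), 10310 in D0-only, 6062 in D8-only and 13782 in all-stage circRNAs, and only the D8-only interval lay apart from that of the members among these. The intron after the circle had a median of 9170 bases in members (8393 to 11041) and 10562 in all-stage circRNAs (9757 to 11255). It was 8336 in circRNAs detected on D4 and D8 (6977 to 9256). D0-only (6832, 5958 to 7790) and D8-only circRNAs (5330, 4774 to 6013) lay apart from the members. Circles from the same gene share sequence, so these intervals treat as independent what is not.

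Whether D4 libraries favoured long spans beyond the members was asked in the 1012 all-stage circRNAs, which are the same circRNAs in every library. This question was raised after the members' spans had been seen. The median span weighted by reads was 6536 and 6649 bases in the D4 libraries, 5526 and 5368 in the D0 libraries and 5945 and 5803 in the D8 libraries. Both D4 values lay above the other 4. An exact two-sided permutation test of D4 against the other 4 libraries gave p = 0.133, the smallest that this design allows. The share of all-stage reads from circRNAs longer than the members' median was 29.8 ± 0.66% on D4, 24.8 ± 1.01% on D0 and 27.5 ± 0.26% on D8 (SD, n = 2).

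**Figure D4:**
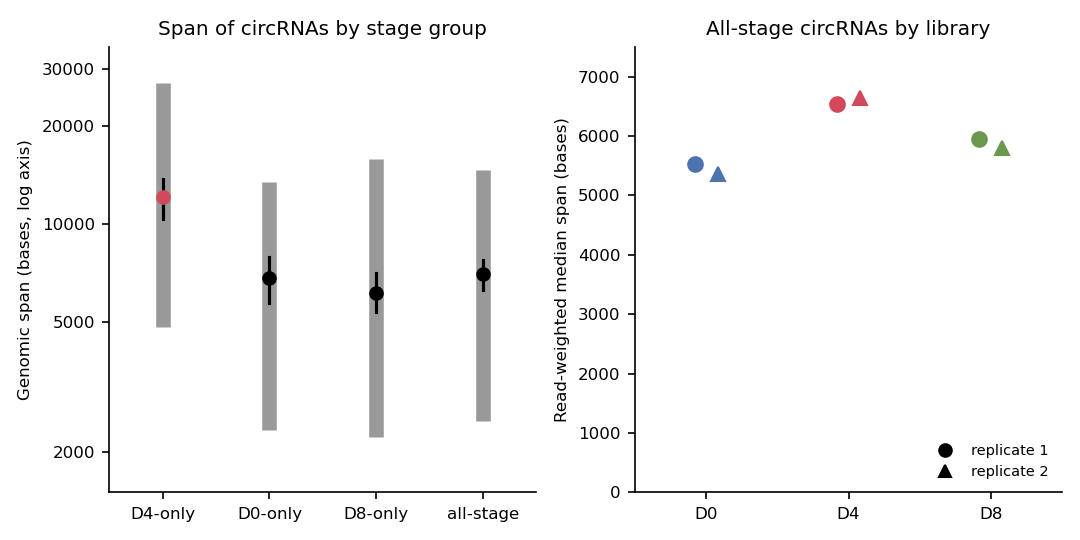
Left, genomic span of D4-only, D0-only, D8-only and all-stage circRNAs (log axis), with the median as a point, its 95% interval as a thin line and the quartiles as a grey bar. Right, the read-weighted median span of the all-stage circRNAs in each library, from an axis that starts at 0. The D4-only median of 12152 bases lies above the intervals of the other 3 groups drawn, and both D4 libraries lie above all D0 and D8 libraries.

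The other circRNAs of the parental genes were compared between stages with a test on their own reads. They are those that the rule left outside the set, so that a circRNA high on D4 alone is missing from them, which bears most on D4 against D8. Such circRNAs numbered 575, from 234 of the 388 genes, and 154 genes had none. They made up 20.8 ± 0.62% of all back-splice reads on D0, 25.9 ± 0.28% on D4 and 25.2 ± 0.56% on D8 (SD, n = 2). A fit over all 1407 circRNAs with enough reads included 303 of them, from 169 genes. It also included 27 of the 481 members, and no count is taken from these, since their reads had been used to choose them. Since the genes were chosen through D4 reads of their members, the counts below describe these genes and are read beside the share called among all 1380 tested circRNAs that were not members, which include the 303.

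From D0 to D4, 16 of the 303 rose and 2 fell at an adjusted p under 0.05 (edgeR quasi-likelihood test, Benjamini-Hochberg). That was 5.28% and 0.66%, beside 2.17% and 1.09% of all tested. The median log2 fold change was 0.26 for the 303 and 0.01 for all tested. Both D4 libraries lay above both D0 libraries in 108 (35.6%, beside 24.6% of all tested) and below them in 68 (22.4%, beside 27.8%). Without D4 replicate 1, or without D4 replicate 2, only the Egfr and Cped1 circRNAs kept their call, with the remaining D4 library assumed to vary like those of the other stages. Without D0 replicate 1, 12 of the 18 kept their call, and without D0 replicate 2, 9 did, on the same assumption for D0.

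The circRNA with the lowest p came from a growth factor receptor gene. Egfr exons 14 to 15 had 167 and 143 reads on D4 and 145 and 187 on D8, up from 13 and 11 on D0, a rise of 3.33 ± 0.29 on the log2 scale from D0 to D4 (SE, adjusted p = 0.00683). The Egfr member of exons 14 to 20, which starts at the same exon, had 6 and 9 reads on D4 and none elsewhere. Tgfbr2 exons 3 to 4 went from 3 and 7 reads on D0 to 65 and 61 on D4 and 45 and 68 on D8 (log2 3.29 ± 0.48, adjusted p = 0.0254). It ends at the same exon as the Tgfbr2 member of exons 2 to 4.

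Cped1 exons 11 to 15, from a gene of little-known function, held 215 and 252 reads on D4 and 281 and 195 on D8, after 21 and 25 on D0 (log2 2.99 ± 0.33, adjusted p = 0.0103). Its D4-only isoform, exons 5 to 15, ended at the same exon with 9 and 16 reads on D4 and 0 and 3 on D8. Fndc3b exons 2 to 4 held 76 and 82 reads on D4 and 61 and 57 on D8, after 4 and 9 on D0 (log2 3.24 ± 0.44, adjusted p = 0.0225).

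Of the main isoforms of Bmper and Nfia, Nfia exons 3 to 7 was not called (adjusted p = 0.104) and the others were. Bmper exons 3 to 6 and exons 12 to 13 and Nfia exons 3 to 6 were listed at 0 in both D0 libraries, and their D4 levels averaged 1145, 857 and 1401 circCPM (adjusted p = 0.0225, 0.0302 and 0.0302). On D8 they averaged 389, 226 and 384 circCPM, below both D4 libraries in every D8 library, yet the D8 against D4 test did not call them (adjusted p = 0.297, 0.282 and 0.297). Pcsk5, the gene of a proprotein convertase that activates secreted proteins, rose in exons 6 to 7 (none on D0, 26 and 18 reads on D4, adjusted p = 0.0343) and in exons 6 to 9 (2 and 7 on D0, 59 and 68 on D4, adjusted p = 0.0407). Without D0 replicate 2, Bmper exons 3 to 6 kept its call, and Bmper exons 12 to 13, Nfia exons 3 to 6 and both Pcsk5 circRNAs did not (adjusted p = 0.0511 to 0.0652). Both Pcsk5 calls were also lost without D0 replicate 1 (adjusted p = 0.0586 and 0.098), and that of exons 6 to 9 with a mean of 5 or more counts (0.0507).

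Bckdhb exons 4 to 8 rose by 1.80 ± 0.30 on the log2 scale, from 41 and 29 reads on D0 to 167 and 147 on D4. Phkb exons 3 to 8 rose by 2.13 ± 0.35, Cnot6l exons 2 to 4, from a gene of the mRNA deadenylase complex, by 1.27 ± 0.21, and Ptbp3 exons 3 to 5, from a splicing regulator gene, by 1.10 ± 0.22 (adjusted p = 0.0302 to 0.0407). Fancl exons 2 to 7, from a DNA repair ubiquitin ligase gene, rose by 2.23 ± 0.31, Ssbp2 exons 2 to 4 by 3.16 ± 0.56 and Slc10a7 exons 2 to 10 by 3.29 ± 0.45 (adjusted p = 0.0225, 0.0334 and 0.0225). The Ptbp3 call was lost with column totals alone (adjusted p = 0.0603), with no filter on low counts (0.092), with a mean of 5 or more counts (0.0509) and without either D0 replicate (0.0579 and 0.0551). The Cnot6l call was lost with no filter on low counts (adjusted p = 0.0653), the Ssbp2 call without either D0 replicate (0.0734 and 0.0551) and the Phkb call without D0 replicate 2 (0.0606).

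A pair of circRNAs fell. Taf4 exons 2 to 5, from the gene of a subunit of the general transcription factor TFIID, fell from 27 and 27 reads on D0 to 3 and 4 on D4, with 10 and 15 on D8 (log2 -3.25 ± 0.60, adjusted p = 0.0342). Arhgap10 exons 14 to 15 had 19 and 13 reads on D0, was listed at 0 in both D4 libraries and had 12 and 10 on D8 (adjusted p = 0.0407). Neither was called with no filter on low counts, or without either D0 replicate. The Arhgap10 member of exons 15 to 19 had none on D0, 6 and 8 reads on D4 and 0 and 19 on D8.

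**Figure D5:**
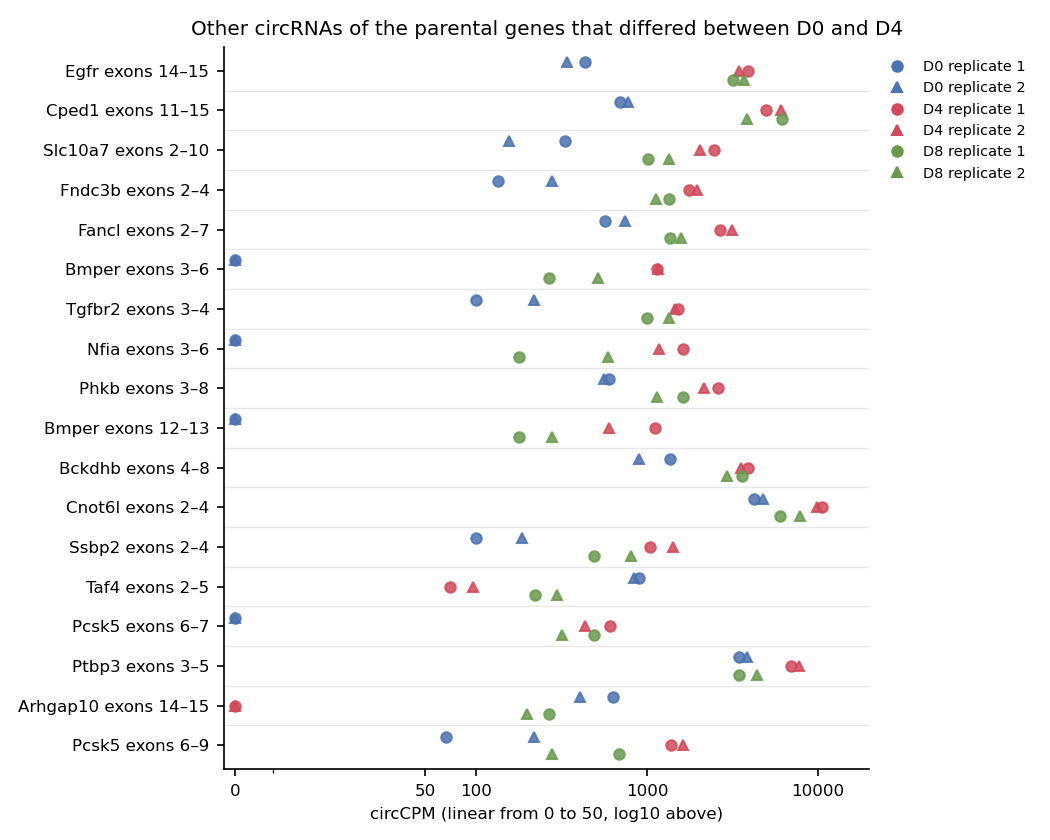
Level in each library of the 18 other circRNAs of the parental genes that passed the test between D0 and D4 (circCPM, linear to 50 and logarithmic above), ordered by p. Circles are replicate 1 and triangles replicate 2. In 16 rows the D4 points lie to the right of the D0 points, and in the Taf4 and Arhgap10 rows to the left.

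From D4 to D8, none of the 303 was called with edgeR, beside 0.0725% of all tested called lower on D8. The unadjusted p was under 0.05 for 47, and DESeq2 called 2 on the same circRNAs, both higher on D8. Both D4 libraries lay above both D8 libraries in 85 (28.1%, beside 23.2% of all tested) and below them in 77 (25.4%, beside 27.4%). From D0 to D8, 7 of the 303 rose, 2.31% beside 1.23% of all tested. None was called lower with edgeR, beside 0.29% of all tested, while 67 had an unadjusted p under 0.05 in either direction and DESeq2 called 3 lower. The 7 became 2 without D4 replicate 1 or without D4 replicate 2, and 4 without D8 replicate 2. These comparisons share libraries, so their counts are not independent of each other.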

How the data were processed

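The authors trimmed reads with fastp, aligned them to mm9 with BWA-MEM and called back-splices in each library with CIRI2. The submitters' processing notes also list FastQC 0.11.9 and HISAT2 2.2.0. The deposited values are raw counts of back-splice reads per circRNA and library, kept by the authors where a stage had 2 or more reads in both replicates, with a genomic span from their coordinates. Here counts were divided by the table's library totals (circCPM). Genes, exons and sequences came from the NCBIM37 (mm9) genome and its GENCODE annotation, and current symbols from RefSeq for 2009 of 2017 genes. edgeR 4.0.16 (TMM, filterByExpr with a minimum count of 10, all 3 stages in 1 fit) gave the tests, and DESeq2 1.42.0 was an alternative. The members and gene lists were chosen with earlier results of these data known. Named circRNAs were the 10 highest on D4, the 10 highest with no read elsewhere and 3 on each side of the read minimum. Also named were those of genes with 3 or more members, up to 4 per gene list, and every other circRNA of the parental genes called from D0 to D4. Intervals cover counting error only. A circRNA of the highest and a gene list are not reported here.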

Additional observations from a re-analysis of the deposited data

How the results depend on the processing

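The number of D4-only circRNAs went from 481 to 285 when 5 or more reads were asked for, and to 145 when 2 reads in either D0 or D8 replicate barred a circRNA. Without each library in turn it ran from 330 to 481. It stays at 481 without a D4 library because the table holds only circRNAs that passed in both replicates of a stage. The share with no read at D0 and D8 (30.1%) was 19.3% among members with 5 or more reads in both D4 libraries, 37.0% when up to 2 reads in all were allowed, and 30.1 to 64.2% without each library in turn. The rise without a D0 or D8 library was built in, since the rule then needs the other library of that stage at 0. The share absent from circBase (48.9%) was 40.0% among members with 5 or more reads, 64.1% among those with no read elsewhere, and 48.9 to 54.2% without each library in turn. Exonic share, shared ends, other circRNAs of the gene and median span (12152 to 13317 bases) stayed within their intervals under every alternative run. For the other circRNAs of the parental genes, the 18 calls from D0 to D4 ran from 2 to 25 without each library in turn, and the 0 calls from D4 to D8 from 0 to 1, with 2 by DESeq2. The 7 calls from D0 to D8 became 4 with RLE size factors, with column totals alone and with a mean of 5 or more counts, 16 with DESeq2, and 2 to 7 without each library in turn. With the replicate number as a block, the replicate block fit called 10 from D0 to D4, 0 from D4 to D8 and 2 from D0 to D8. Same-numbered replicates hardly deviated together (r = 0.03 to 0.07). At such low counts this cannot tell whether the numbers pair the samples, which the labels do not say. All 18 named circRNAs kept their direction in every fit, and all 18 their call with DESeq2. Apart from the rise that the rule built in, the cause of these changes was not tested. At 4 to 100 reads over the D4 libraries, most members are too thin for a test of their own.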
